A study of Mus musculus with 9 samples.

Results

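The 9 genes described here encode enzymes of the tricarboxylic acid cycle. They were chosen by name, as Cs, Idh3a, Idh3b, Idh3g, Ogdh, Dlst, Suclg1, Fh1 and Mdh2, and each has 1 entry among the 29756 entries of the deposited expression table. All 9 passed the filter on low values that left 11974 entries for testing. All 9 libraries came from HT22 cells, a mouse line of immortalised neurons from the hippocampus, and RNA is given as FPKM, in which fragments are divided by gene length and by library size. The labels name an intervention group, an experimental group and a control group with 3 libraries each. The series title speaks of mouse neurons stimulated with hemin, an oxidised form of heme, and of a micelle called PPP8, but the labels do not say which libraries received either, at what dose or for how long, so the groups keep their label names. Nothing in the labels tells whether replicates were grown as separate cultures. The p-values therefore refer to the spread among these libraries alone, which may be technical.

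The tricarboxylic acid cycle runs in the mitochondrial matrix, where it oxidises the acetyl group of acetyl-CoA to carbon dioxide and passes the electrons to NADH and to ubiquinone for oxidative phosphorylation. Citrate synthase starts a turn by joining acetyl-CoA to oxaloacetate, and further along isocitrate dehydrogenase and then the 2-oxoglutarate dehydrogenase complex release carbon dioxide. Succinyl-CoA ligase, succinate dehydrogenase, fumarase and malate dehydrogenase return succinyl-CoA to oxaloacetate. Neurons depend heavily on this route for ATP and also draw on its intermediates for glutamate.

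In outline, 7 of the 9 enzyme RNAs were lower in experimental than in control libraries, with Fh1 and Suclg1 at 0.527 and 0.565 of their control means. The share of members called, 7 of 9, is close to the 74.0% of all tested genes that were called in this comparison, with 50.5% of all tested genes lower. Cs and Dlst were called in none of the comparisons as deposited, and were higher than in control libraries, in both other groups, after median-ratio scaling. Quantile normalization called only Dlst higher, and only in experimental against control libraries. In intervention libraries 6 of the 9 were lower than in control libraries, where 65.3% of all tested genes were called and 41.1% were lower, and median-ratio scaling left 4 lower and 2 higher. Between intervention and experimental libraries, Suclg1 and Fh1 were higher, and those calls were lost in some fits that left out 1 library. These are bulk samples, so fewer cells and less RNA per cell cannot be told apart, and FPKM gives each RNA only as a share of its library.

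Summed FPKM lay between 316912 and 339943 in the 9 libraries, and sequencing depth is unknown. Of 8 neuronal markers, 6 stayed under 1 FPKM in all 9 libraries, among them Map2 and Rbfox3, while Tubb3, a neuronal tubulin, lay between 5.69 and 8.46 FPKM. In intervention replicate 3 the neuronal markers other than Tubb3 summed to 0.05 FPKM, against 1.15 to 2.56 in the other 8 libraries, and counts of calls that move by over 1.5 times without it are also given without it. The 6 astrocyte markers summed to 2.32 to 3.94 FPKM in intervention, 2.63 to 2.95 in experimental and 5.79 to 7.04 in control libraries, with Gfap at 0.47 or less in every library. Of these, Slc1a3 alone had 2.12 to 2.92, 1.94 to 2.34 and 4.99 to 5.74 FPKM in intervention, experimental and control libraries. The 7 microglial and blood markers summed to 1.75 to 3.89, 1.18 to 2.45 and 10.9 to 12.4 FPKM in intervention, experimental and control libraries. Tmem119 alone had 1.39 to 2.01, 0.75 to 1.09 and 9.48 to 11.1 FPKM in those groups, while Ptprc, the pan-leukocyte marker, reached at most 0.01. The other microglial markers Aif1, Cx3cr1 and P2ry12 reached at most 0.17, 0.07 and 0.09 FPKM in any library, and the globins Hba-a1 and Hbb-bs at most 0.94 and 1.52. The 7 oligodendrocyte and endothelial markers were all under 1 FPKM and summed to 0.54 to 1.44, 0.99 to 1.41 and 0.92 to 1.78 FPKM in intervention, experimental and control libraries. The part of these differences in the results below was not tested.

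The promoters of 4 members are shown because they pair the members with the lowest experimental to control ratios, Fh1 and Suclg1, with the members that no comparison called on the deposited scale, Cs and Dlst. Each is the stretch of 250 bases before the RefSeq start on GRCm38.p6, the assembly also called mm10, written 5′ to 3′ on the gene's own strand. Capitals mark the motifs searched on both strands: CCAAT (the CCAAT box), GCATGC (the core of the NRF1 motif), TGACCT (a nuclear receptor hexamer) and CCGGAA (the ETS core). No 2 marked motifs overlap in these 4 stretches.
Fh1, chr1:175625636-175625885, minus strand: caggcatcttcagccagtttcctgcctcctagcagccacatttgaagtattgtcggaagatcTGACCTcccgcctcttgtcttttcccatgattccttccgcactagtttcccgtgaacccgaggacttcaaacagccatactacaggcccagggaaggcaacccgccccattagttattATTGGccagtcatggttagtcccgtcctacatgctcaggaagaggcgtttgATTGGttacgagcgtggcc
Suclg1, chr6:73248255-73248504, plus strand: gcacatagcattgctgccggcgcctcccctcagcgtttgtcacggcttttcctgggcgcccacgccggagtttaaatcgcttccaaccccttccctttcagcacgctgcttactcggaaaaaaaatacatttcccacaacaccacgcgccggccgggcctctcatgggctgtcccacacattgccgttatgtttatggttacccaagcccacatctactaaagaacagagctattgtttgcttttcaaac
Cs, chr10:128337477-128337726, plus strand: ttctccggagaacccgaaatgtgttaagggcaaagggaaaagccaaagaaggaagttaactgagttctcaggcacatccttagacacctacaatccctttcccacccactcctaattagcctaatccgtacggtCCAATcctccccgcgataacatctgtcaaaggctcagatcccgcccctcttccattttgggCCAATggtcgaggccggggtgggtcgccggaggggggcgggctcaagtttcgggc
Dlst, chr12:85110583-85110832, plus strand: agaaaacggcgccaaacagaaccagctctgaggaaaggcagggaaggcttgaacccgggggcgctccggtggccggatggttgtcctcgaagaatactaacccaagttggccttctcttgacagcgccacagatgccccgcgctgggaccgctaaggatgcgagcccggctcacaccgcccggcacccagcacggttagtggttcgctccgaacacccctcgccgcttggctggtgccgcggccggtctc

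The CCAAT box stood 70 and 19 bases before the start of Fh1, which fell, and 116 and 55 bases before that of Cs, which was not called. The windows of Suclg1 and Dlst held none of the 4 motifs. RefSeq promoters were given for 8 of the 9 members. Of those 8 genes, 4 (Cs, Fh1, Idh3b and Ogdh) held a CCAAT box in at least 1 of their windows. Among 32851 promoter windows of the same length, each counted singly, 33.8% held one. The 2 shares differ in unit, since Ogdh counts as 1 gene with 6 windows. The hexamer stood 188 bases before the start of Fh1 (14.0% of all windows hold one), the ETS core 104 bases before that of Idh3g (3952 of the 32851 windows), and the NRF1 core only in 2 of the 6 Ogdh windows (6.7%).

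The first question is how the experimental libraries differed from the control libraries. Of the 9 members, 7 fell and 0 rose, against a background in which 50.5% of the 11974 tested genes were lower, 23.5% higher and 74.0% called in either direction (limma on log2(FPKM + 1), adjusted p under 0.05). The members' median difference was -0.41 log2 units, beside -0.21 for all genes. The share of members called is close to that of all genes, so the count by itself says little about the cycle. After median-ratio scaling, which brings the median of all genes to -0.0043, 6 members were lower and 2 (Cs and Dlst) higher, when 4321 genes were higher and 4399 lower.

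**Figure D1:**
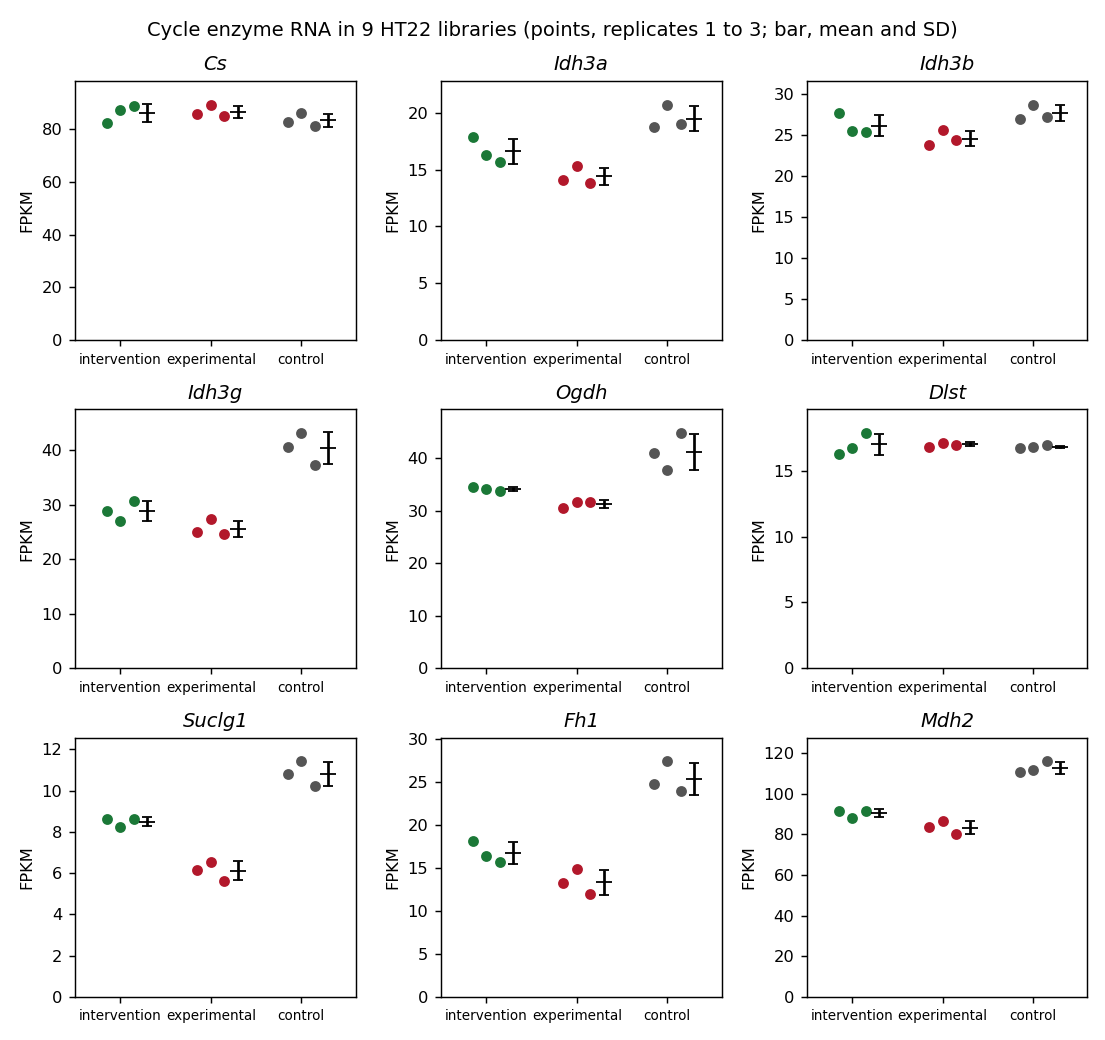
FPKM of the 9 cycle enzymes (vertical axes, each from 0) in each of the 3 intervention, 3 experimental and 3 control libraries (points), with the mean and SD of each group beside them. Fh1 and Suclg1 are lowest in the experimental libraries and highest in the control libraries without overlap, while the groups overlap for Cs and Dlst.

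Cs encodes citrate synthase, the enzyme of the entry step (chromosome 10, 128337734 to 128362479, plus strand of mm10). Its RNA had 82.6, 87.6 and 89.1 FPKM in intervention libraries, 85.7, 89.5 and 85.0 in experimental libraries and 83.0, 86.1 and 81.2 in control libraries. The 3 groups overlapped. The experimental minus control difference was 0.055 log2 units, with a 95% interval of -0.051 to 0.16 (adjusted p = 0.317), an interval that on this scale holds no decrease of the size seen for the 7 members that fell. After median-ratio scaling the same difference was 0.30 (adjusted p = 0.000455). Quantile normalization, which brought the median of all genes to -0.01, gave -0.0045 (adjusted p = 0.937). TPM, in which FPKM is divided by its library sum, gave -0.0094 (adjusted p = 0.862). A rise of Cs thus depended on the scaling. Csl, a citrate synthase-like gene that could share reads with Cs, was listed at 0.03 FPKM or less in all libraries.

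Isocitrate dehydrogenase 3, the NAD-dependent enzyme, is built from a catalytic alpha subunit and from beta and gamma subunits with structural and regulatory roles. Idh3a, the alpha subunit gene (chromosome 9, 54586334 to 54604661, plus strand), had 17.9, 16.3 and 15.7 FPKM in intervention, 14.1, 15.3 and 13.9 in experimental and 18.7, 20.7 and 19.0 in control libraries. All 3 experimental values lay below all intervention values, which in turn lay below all control values. Its experimental minus control difference was -0.41 log2 units (SE 0.064, adjusted p = 0.000211).

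Idh3g, the gamma subunit gene (chromosome X, 73778963 to 73786897, minus strand), had 28.8, 27.0 and 30.7 FPKM in intervention, 25.0, 27.3 and 24.7 in experimental and 40.6, 43.1 and 37.3 in control libraries. The control values stood above all others, and the other 2 groups overlapped. The experimental minus control difference was -0.63 (SE 0.069, adjusted p = 1.54e-05). Idh3b, the beta subunit gene (chromosome 2, 130279309 to 130284547, minus strand), had 27.7, 25.6 and 25.4 FPKM in intervention, 23.8, 25.6 and 24.4 in experimental and 27.0, 28.8 and 27.3 in control libraries. Experimental values lay below control values by a narrow margin, with a difference of -0.16 (SE 0.053, adjusted p = 0.0167). That call was lost without experimental replicate 1 (adjusted p = 0.0658), experimental replicate 3 (0.0502) or control replicate 2 (0.0525) and after quantile normalization (0.146), and the difference turned to 0.072 after median-ratio scaling (0.198). Idh3b shares 5 exonic bases with Nop56 on the opposite strand, and whether the authors counted by strand is not given in the sources used here.

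Since FPKM is scaled to gene length, the subunits can be set against each other within a library, although each ratio assumes the gene lengths the authors used. The Idh3g to Idh3b ratio was 1.04, 1.06 and 1.21 in intervention, 1.05, 1.07 and 1.01 in experimental and 1.51, 1.50 and 1.37 in control libraries. The Idh3a to Idh3b ratio averaged 0.634 ± 0.0144 in intervention, 0.587 ± 0.0159 in experimental and 0.705 ± 0.0138 in control libraries (SD, n = 3 each). Control libraries thus held more gamma and alpha subunit RNA per beta subunit RNA than any other library. A ratio does not depend on library scaling, and these ratios were not tested. Not every ratio was highest in control libraries: Idh3a to Idh2 averaged 0.244 ± 0.0193 in intervention, 0.271 ± 0.00833 in experimental and 0.186 ± 0.00757 in control libraries. Mdh1 to Mdh2 was 0.516 to 0.578 in intervention, 0.454 to 0.504 in experimental and 0.478 to 0.589 in control libraries, where the control range overlapped both others.

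**Figure D2:**
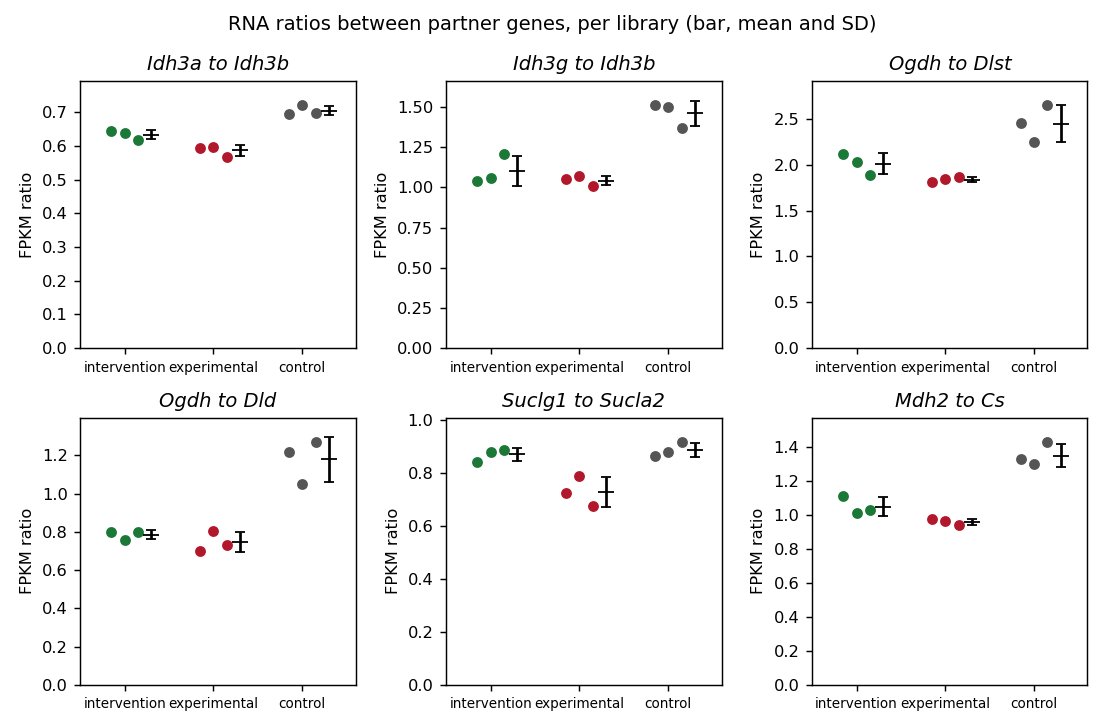
Ratios of FPKM between partner genes (vertical axes, each from 0) in every intervention, experimental and control library (points), with group means and SD. Of the 6 ratios plotted, control libraries stand above all others except for Suclg1 to Sucla2, where the intervention and control groups overlap and the experimental libraries are lowest.

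The 2-oxoglutarate dehydrogenase complex joins Ogdh, its decarboxylating first component, to Dlst, the succinyltransferase core that carries lipoic acid, and to Dld, the lipoamide dehydrogenase shared with the pyruvate dehydrogenase complex. Ogdh (chromosome 11, 6291633 to 6356642, plus strand) had 34.5, 34.1 and 33.8 FPKM in intervention, 30.5, 31.7 and 31.6 in experimental and 41.1, 37.8 and 44.8 in control libraries. No 2 groups overlapped, and the experimental minus control difference was -0.39 (SE 0.059, adjusted p = 0.000176). Dlst (chromosome 12, 85110833 to 85134845, plus strand) had 16.3, 16.8 and 17.9 FPKM in intervention, 16.8, 17.1 and 16.9 in experimental and 16.7, 16.8 and 16.9 in control libraries. Its values overlapped throughout, with a difference of 0.011 and a 95% interval of -0.093 to 0.11 (adjusted p = 0.841). After scaling by median ratios or by quantiles the Dlst difference was 0.24 (adjusted p = 0.00152) and 0.14 (adjusted p = 0.0239).

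Dld, which is not one of the 9, rose, with 42.0 ± 2.20 FPKM in experimental and 35.0 ± 1.30 in control libraries (difference 0.26, adjusted p = 0.00137). On the deposited scale the genes of this complex therefore showed a lower, a level and a higher RNA in the same comparison. After median-ratio scaling or quantile normalization Ogdh was lower and both Dlst and Dld were higher. The Ogdh to Dlst ratio averaged 2.01 ± 0.115 in intervention, 1.84 ± 0.0301 in experimental and 2.45 ± 0.199 in control libraries. The Ogdh to Dld ratio averaged 0.784 ± 0.0238, 0.746 ± 0.0518 and 1.18 ± 0.118 in intervention, experimental and control libraries (SD, n = 3 each).

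Suclg1 encodes the alpha subunit common to both succinyl-CoA ligases, which pairs with Sucla2 in the ATP-forming enzyme and with Suclg2 in the GTP-forming one (chromosome 6, 73248382 to 73276911, plus strand). It had 8.63, 8.24 and 8.61 FPKM in intervention, 6.17, 6.53 and 5.62 in experimental and 10.8, 11.4 and 10.2 in control libraries, the lowest levels of the 9 members. The groups did not overlap, and experimental means were 0.565 of control means (difference -0.73, SE 0.063, adjusted p = 2.91e-06). Its beta partners fell as well, Suclg2 with 7.52 ± 0.229 FPKM in experimental and 14.8 ± 0.290 in control libraries (adjusted p = 4.78e-07) and Sucla2 with 8.37 ± 0.137 and 12.2 ± 0.949 FPKM in experimental and control libraries (adjusted p = 4.39e-05). The Suclg1 to Sucla2 ratio was 0.842, 0.881 and 0.888 in intervention, 0.723, 0.789 and 0.676 in experimental and 0.865, 0.880 and 0.917 in control libraries.

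Fh1 encodes fumarase, which hydrates fumarate to malate in the mitochondrion and also works in the cytosol (chromosome 1, 175600374 to 175625635, minus strand). It had 18.1, 16.4 and 15.7 FPKM in intervention, 13.2, 14.8 and 11.96 in experimental and 24.7, 27.3 and 23.9 in control libraries. The groups did not overlap. Its difference of -0.88 log2 units (SE 0.084, adjusted p = 6.44e-06) was the largest of the 9 in this comparison, and it ranged from -0.97 to -0.65 over 18 other settings, all called.

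Mdh2, the mitochondrial malate dehydrogenase that regenerates oxaloacetate (chromosome 5, 135778480 to 135790398, plus strand), had 91.7, 88.2 and 91.5 FPKM in intervention, 83.7, 86.4 and 80.1 in experimental and 111, 112 and 116 in control libraries. The groups were fully separated, with a difference of -0.43 (SE 0.045, adjusted p = 1.19e-05). The Mdh2 to Cs ratio was 1.11, 1.01 and 1.03 in intervention, 0.976, 0.966 and 0.942 in experimental and 1.33, 1.30 and 1.43 in control libraries. Mdh2 stood above Cs in every control library and below it in every experimental library. Elsewhere in the order of FPKM levels, Fh1 ranked sixth of the members in control libraries, overlapping Idh3b above it, and eighth in experimental libraries, overlapping Idh3a above it.

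**Figure D3:**
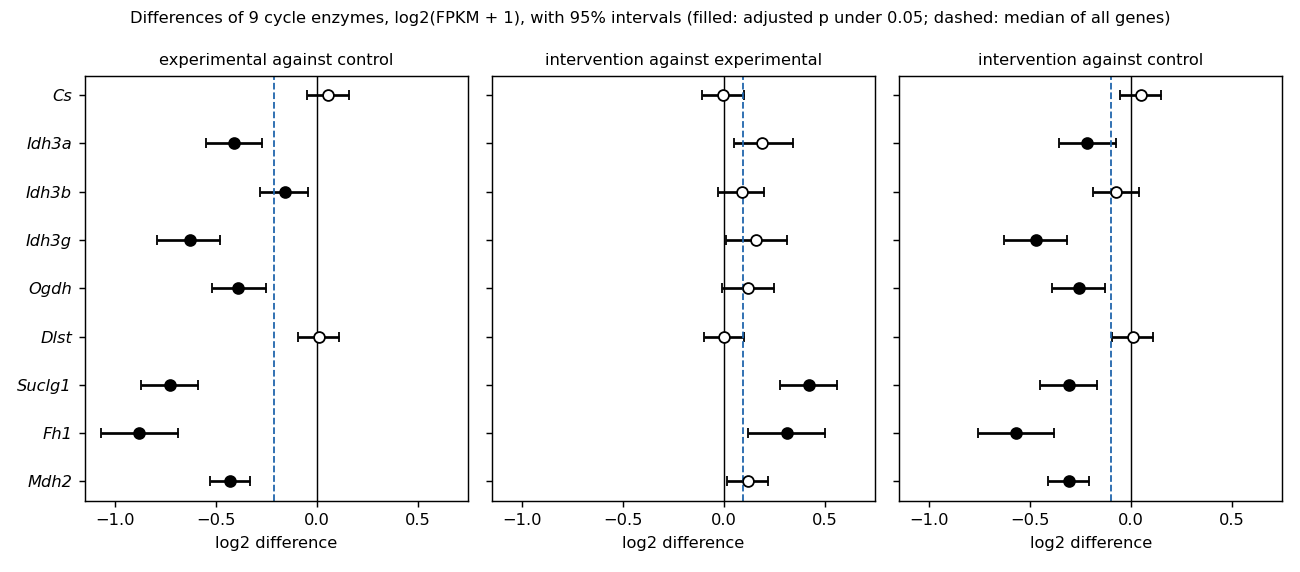
Differences in log2(FPKM + 1) of the 9 cycle enzymes (horizontal axis) with 95% intervals, for experimental against control, intervention against experimental and intervention against control. Filled points passed the test and the dashed line is the median of all tested genes: -0.21, 0.10 and -0.10.

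Of the 8 other cycle subunits, 7 fell and 1 (Dld) rose in experimental against control libraries, with a median difference of -0.50. Of all tested genes 50.5% were lower and 23.5% higher, with a median of -0.21. All 4 succinate dehydrogenase subunits fell. Sdha, the flavoprotein subunit, had 27.5 ± 1.98 FPKM in experimental and 55.5 ± 1.63 in control libraries (adjusted p = 6.92e-07), and Sdhc, a membrane anchor, had 13.6 ± 0.521 and 27.0 ± 2.04 FPKM in experimental and control libraries (adjusted p = 5.34e-07). Sdhb, the iron-sulfur subunit, and Sdhd, the other anchor, were at 0.703 and 0.698 of their control means (adjusted p = 0.00084 and 0.000235). Over the cycle's 17 genes, 14 fell, 1 rose and 2 were not called, and all of these calls but that of Idh3b held, in the same direction, after median-ratio scaling.

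**Figure D4:**
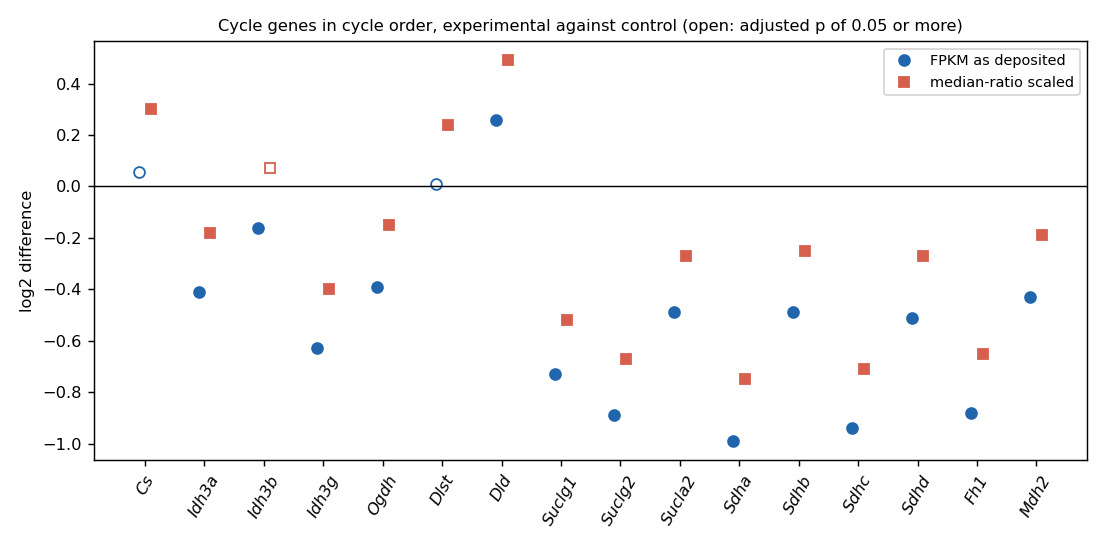
Experimental minus control difference in log2(FPKM + 1) (vertical axis) of cycle genes in the order of the cycle, from the FPKM as deposited (circles) and after median-ratio scaling (squares), with open symbols where the adjusted p was 0.05 or more. Scaling moved every plotted gene upward, Cs and Dlst became called as higher, and Idh3b lost its call.

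The genes around the cycle did not move as a block. Their counts in experimental against control libraries stand beside 50.5% of all tested genes lower and 23.5% higher. The list of cytosolic and NADP-linked counterparts also holds Ogdhl and Dhtkd1, relatives of Ogdh that are neither. All 6 of its genes were tested and fell, by a median of -0.78 log2 units. Idh2, the mitochondrial NADP-dependent isocitrate dehydrogenase, was at 53.3 ± 4.16 FPKM in experimental and 105.1 ± 2.49 in control libraries (adjusted p = 7.41e-07). Idh1, its cytosolic counterpart, had 22.2 ± 1.35 and 63.7 ± 4.27 FPKM in experimental and control libraries (adjusted p = 4.54e-07), and Mdh1, cytosolic malate dehydrogenase, was at 0.660 of its control mean (adjusted p = 6.91e-05). All 6 genes of citrate and dicarboxylate export and use fell (median -0.83), among them Acly, which splits citrate in the cytosol, at 0.552 of its control mean (adjusted p = 1.45e-07). The citrate carrier Slc25a1 and the 2-oxoglutarate carrier Slc25a11 were at 0.557 and 0.324 of their control means (adjusted p = 9.44e-07 and 1.36e-07).

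Pyruvate entry was split, with 3 genes higher, 3 lower and 1 not called. Pdha1, the alpha subunit of the first component of pyruvate dehydrogenase, had 54.7 ± 1.72 FPKM in experimental and 84.1 ± 3.60 in control libraries (adjusted p = 1.62e-06), while its beta partner Pdhb had 36.7 ± 0.197 and 28.2 ± 2.53 FPKM in experimental and control libraries (adjusted p = 0.000262). Pcx, pyruvate carboxylase, which refills oxaloacetate, rose to 24.3 ± 1.29 FPKM in experimental libraries, against 13.7 ± 0.369 in control libraries (adjusted p = 1.27e-06). Among kinases and phosphatases of pyruvate dehydrogenase 5 of 7 fell and 1 rose. Pdk3 and Pdk4, which switch the enzyme off, were at 0.521 and 0.705 of their control means (adjusted p = 1.6e-07 and 5.89e-05), and Pdpr, a regulatory subunit of the phosphatase, was at 0.665 (adjusted p = 0.000135). Pdk1, named after its values were seen, had 1.12 ± 0.0987 FPKM in experimental and 13.7 ± 2.09 in control libraries (adjusted p = 2.89e-08).

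The list of glutamine and amino acid entry, which also holds malic enzyme genes and Pck2, was split as well. Of its 10 genes 9 were tested, with 3 higher and 4 lower. Got1, the cytosolic aspartate aminotransferase, rose to 1.55 times its control mean (adjusted p = 5.46e-06), and Got2, the mitochondrial one, was at 0.902 (adjusted p = 0.0176). Glud1, glutamate dehydrogenase, was at 0.926 of its control mean (adjusted p = 0.0425). The Got2 call was lost without experimental replicate 1 (0.0535), experimental replicate 3 (0.0699) or control replicate 3 (0.0677), and that of Glud1 in 7 of 9 fits that left out a library, up to an adjusted p of 0.172. Both turned upward after median-ratio scaling, Glud1 with a call (adjusted p = 0.0347).

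Genes for succinate dehydrogenase assembly and for lipoylation, the attachment of lipoic acid that Dlst needs, fell in 6 of 6 tested cases of 8 listed (median -0.54), although 3 of the 6 lost their call after quantile normalization. Lias, lipoyl synthase, was at 0.642 of its control mean (adjusted p = 0.000281), Sdhaf2, a flavinylation factor for Sdha, at 0.734 (adjusted p = 0.000135, and 0.180 after quantile normalization) and Mcat, of mitochondrial fatty acid synthesis, at 0.485 (adjusted p = 2.26e-06). Iron-sulfur cluster assembly genes fell in 9 of 10 cases (median -0.57). With a mean of at least 5 FPKM required, which tests fewer genes, 3 iron-sulfur genes and 0 assembly and lipoylation genes were called. Nfs1, the cysteine desulfurase, was at 0.577 of its control mean (adjusted p = 0.00018) and Iscu, the scaffold, at 0.691 (adjusted p = 0.00342), a call of Iscu that median-ratio (0.0648) and quantile scaling (0.157) removed.

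Among regulators of mitochondrial biogenesis 3 of 7 fell, 1 rose and 3 were not called. Myc rose to 1.95 times its control mean (adjusted p = 2.18e-06), Gabpa, an ETS factor subunit, was at 0.860 (adjusted p = 0.00228, and not called after median-ratio or quantile scaling), and Tfam, which packages mitochondrial DNA, had 10.2 ± 0.441 and 11.2 ± 1.46 FPKM in experimental and control libraries (adjusted p = 0.249). References of mitochondrial content were 2 higher, 1 lower and 2 not called of 5 tested, which median-ratio scaling made 4 higher and 1 lower. The outer membrane channel gene Vdac1 was at 0.751 of its control mean (adjusted p = 7.64e-06), Tomm20, an import receptor, at 1.82 (adjusted p = 3.1e-06), and Vdac2 had 40.3 ± 2.73 FPKM in experimental and 40.4 ± 2.30 in control libraries (adjusted p = 0.929).

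**Figure D5:**
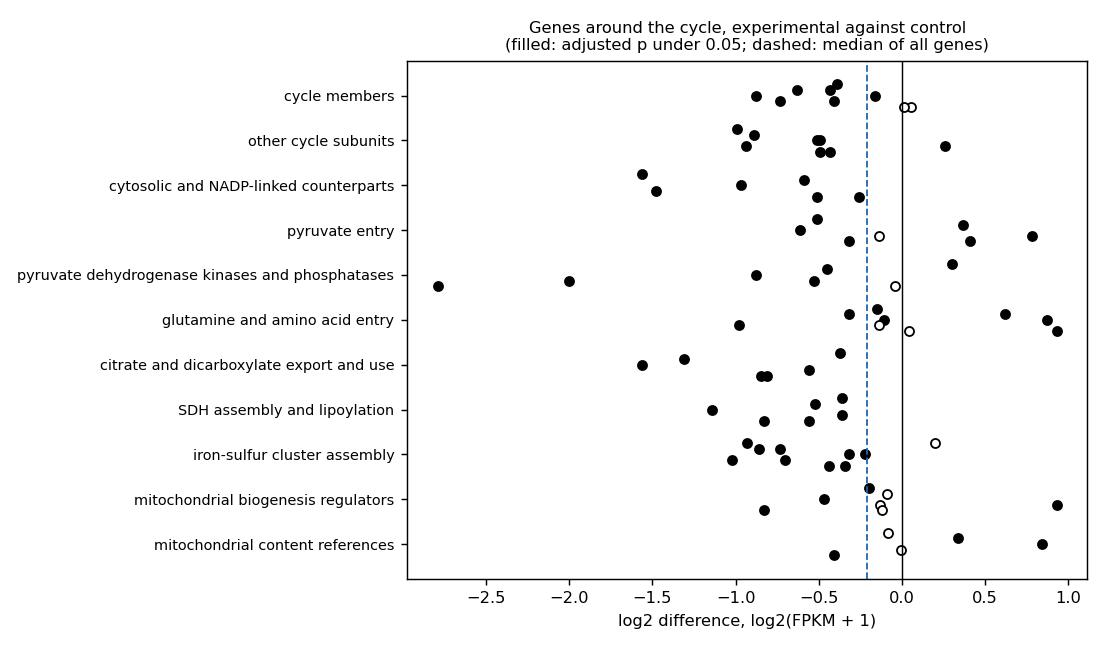
Experimental minus control difference in log2(FPKM + 1) (horizontal axis) of each tested gene of 11 lists, 1 row per list. The lists are the cycle members, the other cycle subunits and those around the cycle. Filled points mark an adjusted p under 0.05, and the dashed line the median of all genes, -0.21. Export genes, counterparts and SDH assembly genes lie left of 0, while pyruvate entry, amino acid entry and content references lie on both sides.

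The next comparison set intervention against experimental libraries. Of the 9 members, 2 rose and 0 fell, against 15.9% of all tested genes higher, 3.6% lower and 19.5% called in either direction. The members' median difference was 0.12 log2 units, beside 0.10 for all genes. After median-ratio scaling Suclg1 alone was called among the members, when 645 genes were higher and 792 lower. Suclg1 averaged 8.49 ± 0.220 FPKM in intervention and 6.11 ± 0.458 in experimental libraries, 1.39 times as much (difference 0.42, SE 0.063, adjusted p = 0.0151). Fh1 averaged 16.7 ± 1.27 and 13.3 ± 1.45 FPKM in intervention and experimental libraries, 1.25 times as much (difference 0.31, SE 0.084, adjusted p = 0.034). The groups of neither gene overlapped.

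Neither gene was called without intervention replicate 1 (adjusted p = 0.0567 for Suclg1 and 0.126 for Fh1), experimental replicate 1 (0.0621 and 0.102) or experimental replicate 3 (0.0641 and 0.119), and without intervention replicate 3 Suclg1 alone was called, with Fh1 at 0.054. In the first 3 of these fits 1 to 6 genes of all those tested were called, and the differences were 0.41, 0.43 and 0.37 for Suclg1 and 0.25, 0.30 and 0.24 for Fh1. Without intervention replicate 3, 950 genes were called. Idh3a, with a difference of 0.19 (95% interval 0.048 to 0.34, adjusted p = 0.0616), and Mdh2, with 0.12 (0.016 to 0.22, adjusted p = 0.0897), were not called although their groups did not overlap, and Idh3a was called without experimental replicate 2 (adjusted p = 0.0448). Ogdh, whose groups did not overlap either, had a difference of 0.12 (adjusted p = 0.157). Differences of the remaining members were 0.16 for Idh3g, 0.087 for Idh3b, 0.00013 for Dlst and -0.0053 for Cs (adjusted p at least 0.117). The intervals of Cs (-0.11 to 0.10) and Dlst (-0.10 to 0.10) hold no difference as large as that of Suclg1.

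Of the 8 other cycle subunits, 5 rose, among them Sucla2, Suclg2, Sdha and Sdhc, and 0 fell, with a median of 0.21. Sdhc averaged 17.6 ± 0.685 FPKM in intervention and 13.6 ± 0.521 in experimental libraries (adjusted p = 0.0153) and Sdha 33.4 ± 2.61 and 27.5 ± 1.98 FPKM in intervention and experimental libraries (adjusted p = 0.0268). The adjusted p was 0.0485 for Sucla2 and 0.0414 for Suclg2. None of the 5 was called without intervention replicate 1, experimental replicate 1 or experimental replicate 3, 2 of the 8 were called without intervention replicate 3, and Sdhc alone was called after median-ratio scaling (adjusted p = 0.0352). Of all tested genes 15.9% were higher. Of the surrounding lists, 4 of 6 counterparts, 3 of 6 assembly and lipoylation genes and 3 of 10 iron-sulfur genes rose. On the deposited scale 0 of 7 pyruvate entry genes, 0 of 9 amino acid entry genes and 0 of 6 export genes were called. Of the pyruvate dehydrogenase kinases and phosphatases 1 rose and 1 (Pdk4) fell, of the regulators 1 rose and 1 (Myc) fell, and of the content references 1 (Vdac1) rose. All of these calls were lost without any 1 of the same 3 libraries.

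The last comparison set intervention against control libraries, and shares the control libraries with the first. Of the 9 members, 6 fell and 0 rose, against 41.1% of all tested genes lower, 24.1% higher and 65.3% called in either direction, and the members' median was -0.26 log2 units beside -0.10 for all genes. Fh1 was at 0.660 of its control mean (difference -0.57, SE 0.084, adjusted p = 0.000194), Idh3g at 0.714 (adjusted p = 0.000179) and Suclg1 at 0.786 (adjusted p = 0.00138). Mdh2 was at 0.803 (adjusted p = 0.000164), Ogdh at 0.827 (adjusted p = 0.00284) and Idh3a at 0.852 (adjusted p = 0.0126). For each of these 6 genes every intervention value lay below every control value.

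Idh3b had a difference of -0.076 (95% interval -0.19 to 0.041, adjusted p = 0.228), Cs one of 0.049 (-0.056 to 0.15, adjusted p = 0.379) and Dlst one of 0.011 (-0.093 to 0.11, adjusted p = 0.845). Without intervention replicate 3 the Idh3a call was lost (adjusted p = 0.0523), which left 5 members called. After median-ratio scaling 4 members were lower and 2 (Cs and Dlst) higher, when 3787 genes were lower and 3999 higher, and Idh3a (adjusted p = 0.263) and Ogdh (0.0983) were not called. Among the 8 other subunits 7 fell and Dld rose (adjusted p = 0.000531), or 4 fell and 1 rose after median-ratio scaling, and Sdha and Suclg2 were at 0.602 and 0.591 of their control means (adjusted p = 9.41e-06 and 3.8e-06). The Sdhb call (adjusted p = 0.0276) was lost without intervention replicate 2 (0.0935), intervention replicate 3 (0.0931), control replicate 1 (0.0522) or control replicate 2 (0.0989). That of Sdhd (adjusted p = 0.0175) was lost without intervention replicate 2 (0.0675), control replicate 1 (0.0573) or control replicate 2 (0.0588). All 6 export genes and 5 of 6 counterparts fell, the counterparts 3 of 6 without intervention replicate 3 or after median-ratio scaling. Pyruvate entry had 3 genes higher and 2 lower of 7, amino acid entry 3 and 3 of 9, and content references 2 and 1 of 5. Iron-sulfur genes had 1 higher and 5 lower of 10, or 1 and 2 after median-ratio scaling. Kinases and phosphatases had 1 higher and 5 lower of 7, and regulators 1 and 2 of 7. Of the assembly and lipoylation genes 3 of 6 fell. Pcx stood at 25.3 ± 1.58 FPKM in intervention and 13.7 ± 0.369 in control libraries, with an adjusted p of 1.48e-06.

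The likeness of other genes to the average profile of the 9 members was measured as the root-mean-square distance between values of log2(FPKM + 1), each centred on its own mean, over the 9 libraries. Among 7352 other tested genes with a mean of at least 5 FPKM, those nearest included Fubp3 (0.023 log2 units), Itm2c (0.025), Uba2 (0.026) and Ssrp1 (0.030), against a median distance of 0.213. Fubp3 averaged 12.4 FPKM in intervention, 11.0 in experimental and 14.5 in control libraries. Of the members themselves Mdh2 (0.041) and Idh3a (0.045) lay nearest the average and Fh1 (0.212) and Cs (0.191) farthest. There were 30 and 54 other genes nearer than Mdh2 and Idh3a, and 3654 and 3203 nearer than Fh1 and Cs. The average profile thus described some members poorly, and genes outside the cycle also lay near it.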

How the data were processed

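Libraries were made from total RNA with a SMARTer mRNA-Seq kit, per the labels' protocols. The authors deposited 1 table of FPKM with 2 decimals, and the submitters' processing notes name mm10. The sources used here do not give the aligner, the counting program, the annotation or the use of strand. Whole reads could not be recovered: for genes under 200 nt, 1295 of 8039 positive values (16.1%) were smaller than 1 read would give in a library of 200 M reads. Depth is therefore unknown, the planned count tests were not run, and precision rests on replicate spread.

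Entries with at least 1 FPKM in at least 3 of 9 libraries were tested. For the 61 entries that repeat a symbol, the entry with the highest mean kept it. Groups were compared on log2(FPKM + 1) with limma 3.58.1 in R 4.3.3 (1 fit, mean-variance trend, no covariate, 2-sided, Benjamini-Hochberg adjustment over all tested entries, called under 0.05), which understates changes of low genes. Scripts were tested on simulated data. Gene positions come from GENCODE M21.

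Members and lists were chosen with earlier results of these data known. Besides members and the other cycle subunits, each list's 3 members of highest mean FPKM are named, except that a few genes these rules pick are not reported here. Phb1, a listed content reference, was not analysed here. Alternatives were another pseudocount, 2 other filters, 3 scalings, 2 other fits, a replicate block and each library left out.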

Additional observations from a re-analysis of the deposited data

How the results depend on the processing

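Over 79 differences of named genes and 18 alternatives each, where a filter kept the gene, 1287 of 1419 alternatives kept direction and call, 92 lost the call, 12 gained one and 28 turned the sign. Signs turned as follows. In experimental against control, median-ratio scaling gave 0.072 for Idh3b, 0.095 for Got2, 0.13 for Glud1, 0.026 for Gabpa, 0.11 for Tfam and 0.23 for Vdac2. Quantile normalization gave -0.0045 for Cs, 0.087 for Tfam and 0.0039 for Vdac2, TPM gave -0.0094 for Cs and -0.052 for Dlst, and Vdac2 was 0.048 and 0.037 without experimental replicate 3 and control replicate 2. In intervention against experimental, median-ratio scaling gave -0.0078 for Idh3b, -0.093 for Dlst and -0.044 for Dld, quantile normalization -0.057 and TPM -0.013 for Dlst. Leaving out 1 library turned Cs to 0.027 (intervention replicate 1) and 0.017 (experimental replicate 2), and Dlst ranged from -0.035 to 0.028. In intervention against control, median-ratio scaling gave 0.065 for Idh3b, quantile normalization -0.022 and TPM -0.028 for Cs, TPM -0.065 for Dlst, and leaving out 1 library -0.024 to 0.039 for Dlst. Apart from Idh3b, Got2, Glud1 and Gabpa, none of these was called as deposited.

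Leaving out 1 library gave 6 to 7 members called in experimental against control, 0 to 3 in intervention against experimental and 5 to 6 in intervention against control. It gave 8117 to 8819, 1 to 2557 and 6904 to 7772 genes called in the same comparisons. Where 0 members were called, limma called 1 to 6 genes in all at an adjusted p under 0.05, while 3159 to 3363 genes had an unadjusted p under 0.05. In intervention against experimental, 1 member was called without a filter, with median-ratio scaling or with quantile normalization, and 358, 1437 (645 higher, 792 lower) and 1038 (451 higher, 587 lower) genes were called. With a mean of at least 5 FPKM, 5702 genes were called in experimental against control and 5129 in intervention against control, from 7361 tested. The cause of these shifts was not tested, except that the last filter tests fewer genes.

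Groups share replicate numbers in the labels. Deviations of same-numbered libraries from their group means had correlations across genes of -0.182 to 0.11, beside -0.14 to 0.149 for libraries of different number. Not every sample correlated best with its own number. With 3 libraries a group, these values cannot tell whether the numbers pair the samples. With the replicate block 7, 2 and 6 members were called, as without it, and 1268 genes instead of 2337 were called in intervention against experimental. Unknown depth limits what can be said of genes of low FPKM. The planned edgeR and DESeq2 alternatives were not run, since whole reads could not be recovered.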
